A study of Mus musculus with 14 samples.

Results

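CD8+ T cells taken from mouse tumours were compared with CD8+ T cells that had been activated in culture, to find which transcripts of tumour T cells exceeded or fell short of those of activated cells without a tumour around them. The comparison used 7 of the 14 libraries of the series, all 4 vehicle cultures and all 3 tumour samples, joined on gene symbol from the 2 tables of the series. The cultures were started from whole spleen cells of the OT-1 line, in which the CD8+ T cells bear 1 transgenic receptor for an ovalbumin peptide. They were given 1 µg/mL of that peptide and 200 U/mL of human interleukin-2 for 3 days, then kept for 4 more days, with DMSO as the vehicle, and are labelled wild type and CD8+ T cells. No sort is named for them. The tumour samples were CD8+ T cells enriched and sorted from MCA205 fibrosarcomas, a transplantable connective tissue tumour line, 14 days after injection under the skin of wild-type C57BL/6 mice. The labels call them pooled without saying how many mice went into each. The other libraries, 4 cultures with 100 nM of the acetyl-CoA carboxylase inhibitor ND-646 and 3 samples of spleen CD8+ T cells from the tumour experiment, serve only as reference levels. Group and experiment coincide, so tumour, mouse line, receptor, tissue dissociation and batch cannot be told apart in any difference given here.

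A CD8+ T cell that meets its antigen divides, loads its granules with granzymes and perforin, and secretes interferon gamma and tumour necrosis factor. When antigen persists, as in tumours, T cells are known to keep inhibitory receptors such as PD-1 on their surface and to express transcription factors of the NR4A and TOX families, a state called exhaustion. Interleukin-2, which such cultures receive, is known to drive growth and the synthesis of granzymes and perforin.

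The vehicle libraries held 23.5 to 29.0 M counts (M, 1e+06) and the tumour libraries 19.6 to 21.0 M. A count of 0 in a single library allowed up to 0.103 to 0.128 CPM (counts per 1e+06) in the vehicle and 0.143 to 0.153 CPM in the tumour libraries, for counting error only. Whether replicates are separate mice or cultures is not in the labels, and the spread behind every p-value is that between these 7 libraries, possibly technical only. Transcripts of fibroblasts and fibrosarcoma cells were present in the tumour libraries. The 29 listed markers took 1.41%, 2.05% and 1.82% of counts in tumour libraries 1, 2 and 3, against 0.00142% to 0.00154% in the vehicle libraries and a mean of 0.00128% in spleen. The smallest p that an exact two-sided permutation test can reach with 4 against 3 libraries is 0.0571, and that was the value here. Markers of macrophages, monocytes and neutrophils took 0.0709% to 0.0801% of tumour counts and 0.0322% to 0.0339% of vehicle counts (exact permutation p = 0.0571). Tumour library 2 held the most fibroblast transcripts and the fewest of the 17 CD8 T cell identity genes (0.456% of counts, against 0.615% and 0.541% in libraries 1 and 3).

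The receptor segments matched the labels. In each of the 4 vehicle libraries Trbv12-1, the beta segment found in cells of OT-1 mice, made up 99.5% of all Trbv counts (Wilson 95% intervals from 99.2% to 99.7%, 4341 to 5353 counts). The near-identical segments Trav14d-1 and Trav14n-1 led among alpha segments at 45.0% to 47.1% each, and how reads were divided between them is uncertain. In tumour libraries 1, 2 and 3 the leading beta segments were Trbv13-1 at 11.0% (9.81% to 12.3%), Trbv3 at 13.1% (11.6% to 14.8%) and Trbv14 at 19.5% (17.9% to 21.2%). There 18 to 19 beta segments each reached 1%, as in spleen, where the leading segment was Trbv16 at 9.08% to 9.30%. Receptor transcripts were thus mixed in the tumour libraries and nearly uniform in the cultures, and the 3 tumour libraries differed in which segment led.

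**Figure D1:**
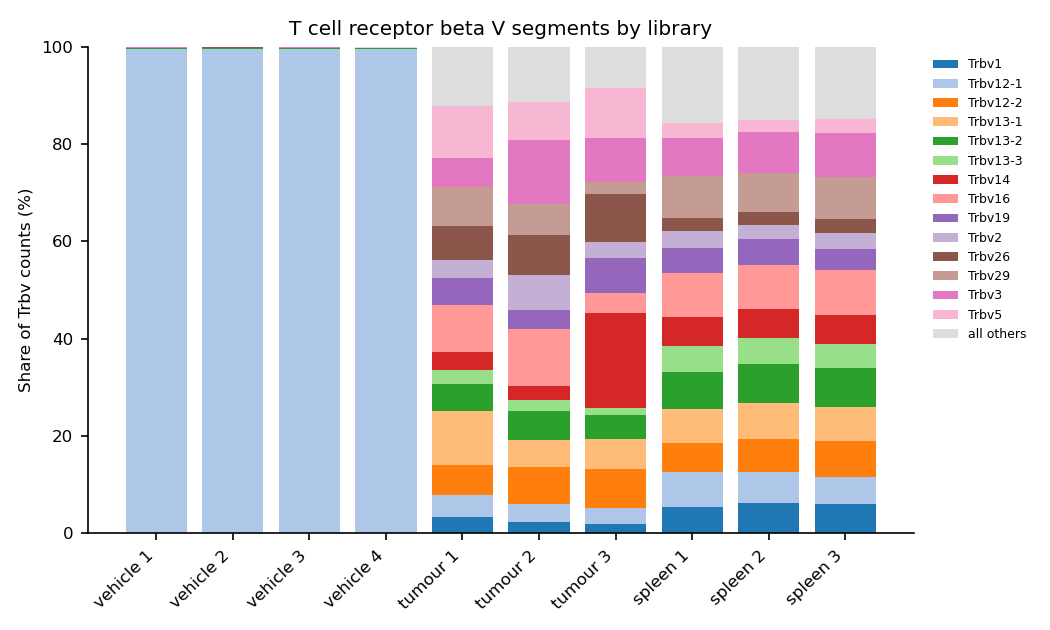
Share of all Trbv counts (%, vertical axis) taken by each beta V segment in the vehicle, tumour and spleen libraries; segments that reach 5% in any library are coloured and the rest are grey. Trbv12-1 fills 99.5% of each vehicle bar, and Trbv14 takes 19.5% of tumour library 3.

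The T cell label held in both groups. Cd3e, a chain of the receptor complex, stood at 305, 315, 326 and 319 CPM in the vehicle libraries and 292, 237 and 299 CPM in the tumour libraries, a narrow difference (log2 fold change -0.20 ± 0.07 (SE), edgeR adjusted p = 0.0266) that did not pass on identity scaling. Cd8a, the CD8 alpha chain, stood at 704, 753, 645 and 672 CPM in the vehicle libraries and 1107, 816 and 1083 CPM in the tumour libraries (log2 fold change 0.53 ± 0.10 (SE), edgeR adjusted p = 0.000923), without overlap of the groups. Cd3g, Cd3d and Cd247, other chains of the receptor complex, stood lower in tumours. With all 14 libraries on 1 scale, Cd3g averaged 642 CPM in vehicle and 333 CPM in tumour libraries. Cd3d averaged 327 and 209 CPM and Cd247 148 and 93.3 CPM. Cd8b1, the CD8 beta chain, stood higher, at 176 and 319 CPM. Of the 17 identity genes, 8 (47.1%, against 22.4% of all genes) had tumour ranges below both vehicle and spleen, and none above both. Transcripts of Cd4 (means 1.27 and 0.541 CPM) and of Foxp3, the regulatory T cell factor (0.449 and 2.39 CPM), were scarce in vehicle and tumour libraries.

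Of 15475 genes tested, 6346 (41.0%) were higher and 5893 (38.1%) lower in the tumour libraries at an edgeR adjusted p under 0.05. Libraries were then scaled so that the 17 identity genes matched on average, which raised the median log2 fold change of all genes from 0.02 to 0.19. On that scale 6737 genes were higher and 3996 lower, and the share of higher genes among calls went from 51.9% to 62.8%. The identity genes were not each level. On the first scale 5 of the 17 were higher and 9 lower, and on the second 6 were higher and 6 lower. With most genes different, a pass of the test says little. A difference was therefore called large when it passed on both scalings in 1 direction, reached 2-fold on both, and left no overlap between the 4 vehicle and the 3 tumour libraries. By that rule 3272 genes (21.1% of those tested) were higher and 1843 (11.9%) lower. These shares are the background for list counts by that rule below. For list counts at an edgeR adjusted p under 0.05 the background is 41.0% higher and 38.1% lower. On identity scaling it is 6737 higher and 3996 lower of the 15475 genes. Among 116 tested genes of the T cell lists that are restricted to lymphocytes, identity genes left out, 41 (35.3%) were higher and 18 lower. Of the other 151 genes of those lists, which connective tissue or myeloid cells can also express, 77 (51.0%) were higher and 11 lower. In bulk RNA, fewer cells of a type and less RNA per cell cannot be told apart.

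Of the 3272 large increases, 2027 (61.9%) were highest in tumour library 2, the library with most fibroblast and fewest identity transcripts, and 447 (13.7%) were lowest there. Among the 41 lymphocyte-restricted genes that were higher, 9 were highest and 19 (46.3%) lowest in that library, and of the 28 raised fibroblast markers 26 (92.9%) were highest there. These shares are the background for the counts of genes highest or lowest in that library given below, and the part of other cells in them was not tested. A comparison of whole ranges needs a background too. With the libraries of all groups on 1 scale, the tumour range lay above both the vehicle and the spleen range for 29.3% of the 15475 genes, below both for 22.4%, and above vehicle but below spleen for 7.36%.

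Inhibitory receptors were raised in part. Of 22 tested, 7 were higher by the large-difference rule (31.8%, against 21.1% of all genes) and 3 lower, and their median log2 fold change was 0.41, against 0.02 for all genes. Pdcd1, which encodes PD-1, stood at 86.4, 92.4, 95.7 and 90.6 CPM in the vehicle libraries and 542, 399.5 and 574 CPM in the tumour libraries. Every tumour library lay far above every vehicle library, 5.53-fold by the means (log2 fold change 2.47 ± 0.11 (SE), edgeR adjusted p = 3.73e-08). Tigit, a receptor for the ligand CD155, stood at 23.9, 23, 25.2 and 23.9 CPM in the vehicle libraries and 87.7, 60.7 and 88.5 CPM in the tumour libraries, again without overlap and 3.29-fold higher (log2 fold change 1.72 ± 0.12 (SE), edgeR adjusted p = 5.99e-07). Klrc1, the inhibitory receptor NKG2A, rose 4.48-fold (76.7 ± 3.25 CPM in vehicle and 343 ± 55.7 CPM in tumour libraries; log2 fold change 2.16 ± 0.10 (SE), edgeR adjusted p = 1.67e-08). The widest gap was that of Nt5e, the ectoenzyme CD73 that makes adenosine, with 4.58, 4.99, 6.13 and 5.76 CPM in the vehicle libraries and 142, 124 and 134 CPM in the tumour libraries (24.9-fold; log2 fold change 4.64 ± 0.08 (SE), edgeR adjusted p = 4.2e-12). Cd101, a receptor found on terminally exhausted cells, rose 7.41-fold (3.08 ± 0.591 CPM in vehicle and 22.8 ± 4.89 CPM in tumour libraries; log2 fold change 2.90 ± 0.17 (SE), edgeR adjusted p = 3.32e-08).

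Ctla4, Lag3 and Havcr2 differed less. Ctla4, the CD28 antagonist, stood at 144, 136, 167 and 147 CPM in the vehicle libraries and 289, 184 and 284 CPM in the tumour libraries. The groups did not overlap but differed by only 1.70-fold (log2 fold change 0.77 ± 0.15 (SE), edgeR adjusted p = 0.00185). Lag3, a receptor for MHC class II, stood at 167, 173, 169 and 179 CPM in the vehicle libraries and 319, 228 and 340.5 CPM in the tumour libraries and likewise rose 1.72-fold (log2 fold change 0.78 ± 0.12 (SE), edgeR adjusted p = 0.000265). Havcr2, which encodes TIM-3, went the other way with 121, 127, 118 and 119 CPM in the vehicle libraries and 78.8, 56.3 and 94.2 CPM in the tumour libraries, 1.59-fold lower in tumours (log2 fold change -0.67 ± 0.15 (SE), edgeR adjusted p = 0.00287). Cd244a (2B4), Vsir (VISTA) and Cd200r1 were the 3 members lower by the large-difference rule, at 2.31-fold, 2.60-fold and 2.66-fold. Under a test against a 2-fold change the count of decreases was 1. Of the 7 large increases, 6 (85.7%) were lowest in tumour library 2 and none was highest there.

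**Figure D2:**
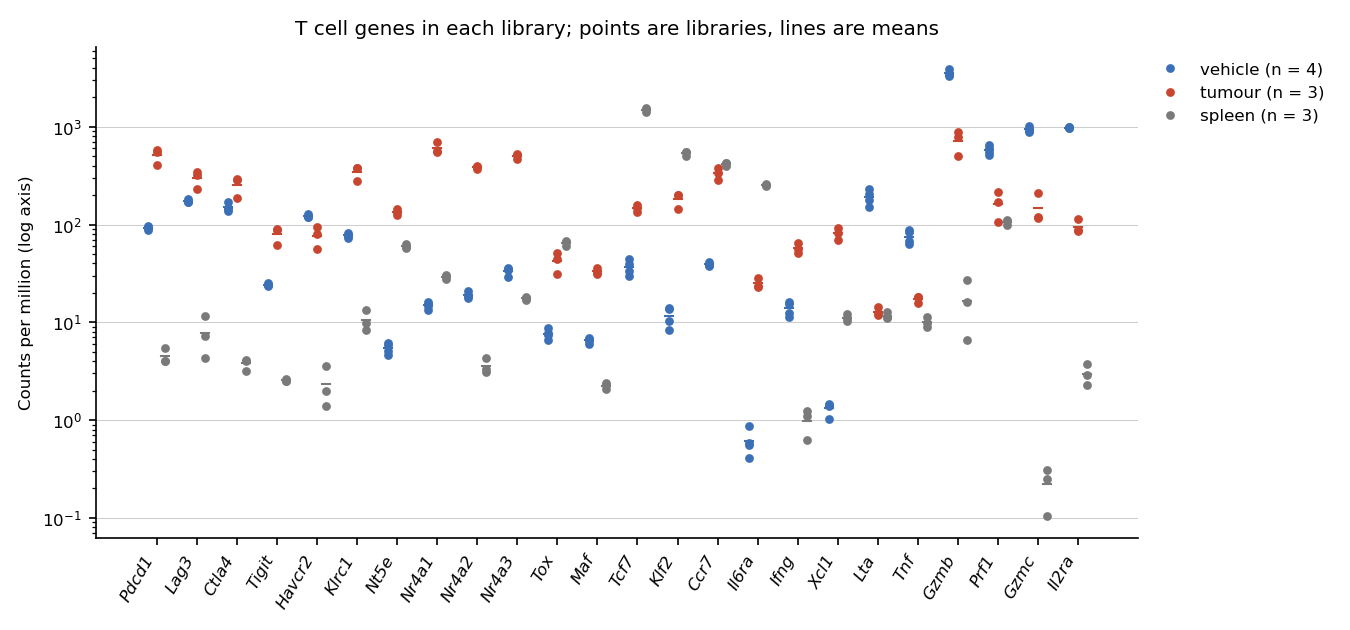
Levels of named T cell genes (CPM on a log axis, all 14 libraries scaled together) in each vehicle, tumour and spleen library; lines mark group means. Pdcd1 and the 3 Nr4a genes lie highest in tumour libraries, Tcf7, Klf2 and Il6ra lie between culture and spleen, and Gzmb, Prf1 and Il2ra lie highest in the cultures.

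Spleen cells of the same experiment held less Pdcd1 and Havcr2 than either group. With all 14 libraries on 1 scale, Pdcd1 was at 4.48 ± 0.802 CPM in spleen, 92.3 ± 3.93 in vehicle and 511 ± 93.9 CPM in tumour libraries (SD, n = 3, 4 and 3), and at 40.9 CPM on average in the ND-646 cultures. Of the 22 receptors, 12 (54.5%, against 29.3% of all genes) had their whole tumour range above the ranges of both spleen and vehicle. For Havcr2 the order was spleen at 2.32, tumour at 77.2 and vehicle at 123 CPM. Others of the list were higher in spleen than in culture, among them Nt5e at 59.8 CPM in spleen and Btla, an inhibitory receptor for HVEM, at 80.3 CPM in spleen, 35.9 in vehicle and 16.4 CPM in tumour libraries.

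Transcription factors tied to exhaustion rose. Of 20 tested, 10 were higher by the large-difference rule and none lower, with a median log2 fold change of 1.02. The NR4A nuclear receptors, which are switched on by receptor signalling and hold back effector genes in chronically stimulated T cells, led the list. Nr4a1 stood at 15.3, 14.5, 13.1 and 16.0 CPM in the vehicle libraries and 546, 689 and 556 CPM in the tumour libraries. Its groups were 40.6-fold apart (log2 fold change 5.34 ± 0.10 (SE), edgeR adjusted p = 2.06e-11). Nr4a2 stood at 18.6, 18.6, 17.4 and 20.7 CPM in the vehicle libraries and 382, 363 and 397 CPM in the tumour libraries, 20.2-fold higher in tumours (log2 fold change 4.34 ± 0.06 (SE), edgeR adjusted p = 1.03e-12). Nr4a3 stood at 35.3, 34.1, 28.5 and 34.5 CPM in the vehicle libraries and 525, 507 and 464 CPM in the tumour libraries, 15.1-fold higher (log2 fold change 3.91 ± 0.07 (SE), edgeR adjusted p = 7.29e-12). In spleen the 3 genes were at 29.3, 3.57 and 17.6 CPM, nearer to the cultures than to the tumours. Only 5 of the 20 list members are restricted to lymphocytes, and 3 of those were higher by the rule. Nr4a1 was highest in tumour library 2, and Nr4a2 and Nr4a3 were not. The part of dissociation or of other cells in the NR4A rise was not tested.

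The NR4A genes are shown by their promoters because they rose together and because such immediate early genes are known to be driven through cyclic AMP response elements. The 250 bases before the RefSeq start of each gene (GRCm38.p6) follow on the gene's strand, with every CRE half-site in capitals, that is TGACG or its reverse complement CGTCA.
Nr4a1, chr15:101266596-101266845, plus strand: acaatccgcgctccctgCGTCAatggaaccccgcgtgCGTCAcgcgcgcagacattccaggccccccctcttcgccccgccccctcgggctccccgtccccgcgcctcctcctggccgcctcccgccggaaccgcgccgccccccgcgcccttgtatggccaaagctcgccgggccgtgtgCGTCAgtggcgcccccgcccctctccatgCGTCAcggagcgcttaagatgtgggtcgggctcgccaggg
Nr4a2, chr2:57124004-57124253, minus strand: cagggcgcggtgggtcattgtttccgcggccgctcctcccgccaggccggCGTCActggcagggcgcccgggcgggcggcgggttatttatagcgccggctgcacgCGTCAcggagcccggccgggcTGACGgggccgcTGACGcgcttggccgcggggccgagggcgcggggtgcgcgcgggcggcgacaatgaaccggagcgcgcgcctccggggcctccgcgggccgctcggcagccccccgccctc
Nr4a3, chr4:48045055-48045304, plus strand: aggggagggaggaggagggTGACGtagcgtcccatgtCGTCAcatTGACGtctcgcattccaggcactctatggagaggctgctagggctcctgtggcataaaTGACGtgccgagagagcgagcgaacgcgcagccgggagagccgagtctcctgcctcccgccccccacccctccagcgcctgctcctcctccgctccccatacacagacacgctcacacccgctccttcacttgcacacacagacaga
Each of the 3 windows held 4 half-sites. Over the 11045 tested genes that have a promoter in the RefSeq table, 29.7% held at least 1 half-site on either strand and 7.84% held at least 2. Of the 23 immediate early and NF-kB feedback genes with a promoter there, 12 (52.2%) held at least 1 and 6 (26.1%) at least 2. Of the 13 exhaustion transcription factors with a promoter there, the 3 NR4A genes included, 7 (53.8%) held at least 1. The AP-1 motif TGANTCA was in 2 of those 23 windows (8.70%), against 5.65% of all. A match describes letters in a window and not binding.

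Tox, the factor that fixes the exhausted state in mouse models, stood at 7.36, 6.49, 8.56 and 7.76 CPM in the vehicle libraries and 44.4, 31.0 and 50.8 CPM in the tumour libraries, 5.57-fold higher in tumours without overlap (log2 fold change 2.48 ± 0.16 (SE), edgeR adjusted p = 3.48e-07). Spleen cells held more of it, 65.1 ± 3.48 CPM, so that tumour cells exceeded the cultures and not the spleen. Maf, a factor of dysfunctional T cells, rose 5.06-fold (6.49 ± 0.394 CPM in vehicle and 32.8 ± 2.45 CPM in tumour libraries; log2 fold change 2.34 ± 0.08 (SE), edgeR adjusted p = 2.86e-10). Zeb2, which acts with T-bet in terminal effector cells, rose 6.93-fold (6.80 ± 0.413 CPM in vehicle and 47.1 ± 3.73 CPM in tumour libraries; log2 fold change 2.79 ± 0.08 (SE), edgeR adjusted p = 5.6e-11), and Tbx21, T-bet itself, 2.36-fold (62.7 ± 4.29 CPM in vehicle and 148 ± 20.4 CPM in tumour libraries; log2 fold change 1.24 ± 0.09 (SE), edgeR adjusted p = 4.37e-07). Of the 10 large increases in this list, 5 were lowest and 2 highest in tumour library 2.

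Immediate early genes, which respond within minutes to receptor signals, were higher almost throughout. Of 30 genes of this and the NF-kB feedback group, 26 were higher by the large-difference rule (86.7%) and none lower, and the median log2 fold change was 2.85. Fos stood at 0.313, 0.402, 0.165 and 0.245 CPM in the vehicle libraries and 577, 846 and 789 CPM in the tumour libraries. Fosb stood at 0.627, 0.569, 0.453 and 0.653 CPM in the vehicle libraries and 951, 1310.0 and 1149.6 CPM in the tumour libraries. These AP-1 subunits were close to the counting floor in culture and abundant in every tumour library (log2 fold change 11.30 ± 0.22 (SE), edgeR adjusted p = 3.34e-10 for Fos; log2 fold change 10.93 ± 0.16 (SE), edgeR adjusted p = 8.76e-12 for Fosb). Fosl1, another AP-1 subunit, rose 88.0-fold (1.92 ± 0.608 CPM in vehicle and 169 ± 38.4 CPM in tumour libraries; log2 fold change 6.43 ± 0.23 (SE), edgeR adjusted p = 3.25e-08). Of the 30, 27 (90.0%, against 29.3% of all genes) had tumour ranges above both culture and spleen. Spleen cells of the tumour experiment, for which no enzyme dissociation is named, held Fos at 48.2 ± 39.7 and Fosb at 7.51 ± 2.55 CPM (SD, n = 3).

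Several measures moved with the immediate early genes. Heat shock genes were higher in 9 of 13 cases by the same rule and lower in none (median log2 fold change 2.84). Hspa1b, an inducible HSP70 whose reads are shared with its near-identical neighbour Hspa1a, went from 6.78, 7.03, 6.25 and 5.51 CPM in vehicle to 1536, 2206 and 2505 CPM in tumour libraries, with 277 ± 135 CPM in spleen. The constitutive chaperones Hspa8 and Hsp90ab1, the most abundant of the list, rose 1.56-fold and 1.74-fold. Heat shock genes took 1.30% to 1.58% of tumour counts and 0.662% to 0.691% of vehicle counts (exact permutation p = 0.0571). Of the 26 raised immediate early genes, 18 (69.2%) were highest in tumour library 2, close to the 61.9% of all large increases. None of the 30 genes is restricted to lymphocytes. The part of dissociation or of other cells in this rise was not tested.

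Proximal receptor signalling genes changed in both directions. Of 30 tested, 8 were higher and 3 lower by the large-difference rule, with a median log2 fold change of 0.06. Rcan1, a calcineurin feedback inhibitor that is itself a target of NFAT, rose 15.5-fold (11.9 ± 0.216 CPM in vehicle and 184 ± 37.1 CPM in tumour libraries; log2 fold change 3.95 ± 0.14 (SE), edgeR adjusted p = 9.82e-09). Spry1, an inhibitor of Ras signalling, rose 4.54-fold and Cd6, a receptor that tunes T cell activation, 4.31-fold. Themis, a lineage protein of the receptor complex, was 3.03-fold lower (237 ± 16.2 CPM in vehicle and 78.2 ± 13.6 CPM in tumour libraries; log2 fold change -1.60 ± 0.11 (SE), edgeR adjusted p = 4.54e-07). Rasgrp1, the activator of Ras downstream of diacylglycerol, was 2.72-fold lower, and Dgka, the kinase that removes diacylglycerol, 2.41-fold lower. For 9 of the 30 genes (30.0%, against 22.4% of all) the tumour range lay below both culture and spleen.

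Most naive and memory genes stood between culture and spleen. Of 25 tested, 13 were higher than in culture by the large-difference rule (52.0%) and 1 lower, with a median log2 fold change of 1.18. In 16 of the 25 (64.0%, against 7.36% of all genes) the tumour range lay above the culture and below the spleen range. Tcf7, which encodes TCF-1, the factor of naive, memory and stem-like cells, stood at 33.1, 29.2, 43.8 and 39.5 CPM in the vehicle libraries and 148, 158 and 134 CPM in the tumour libraries, 4.03-fold higher in tumours (log2 fold change 2.01 ± 0.13 (SE), edgeR adjusted p = 6.67e-07), and at 1500.4 ± 67.0 CPM in spleen. Klf2, which controls exit from tissues, stood at 10.2, 8.30, 13.8 and 13.4 CPM in the vehicle libraries and 144, 197 and 198 CPM in the tumour libraries (15.7-fold; log2 fold change 3.98 ± 0.18 (SE), edgeR adjusted p = 1.69e-07) and at 535 ± 23.9 CPM in spleen. Ccr7, the lymph node homing receptor, was 8.46-fold higher than in culture (38.9 ± 1.65 CPM in vehicle and 329 ± 48.6 CPM in tumour libraries; log2 fold change 3.08 ± 0.09 (SE), edgeR adjusted p = 4.27e-10), and Il6ra, an interleukin-6 receptor chain, 41.2-fold higher (0.601 ± 0.194 CPM in vehicle and 24.8 ± 2.82 CPM in tumour libraries; log2 fold change 5.32 ± 0.17 (SE), edgeR adjusted p = 1.35e-10).

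Igfbp4 rose 11.5-fold above culture (33.9 ± 1.34 CPM in vehicle and 388 ± 58.7 CPM in tumour libraries; log2 fold change 3.52 ± 0.10 (SE), edgeR adjusted p = 2.8e-10), past the 248 ± 25.9 CPM of spleen. It was highest in tumour library 2 (432 CPM, against 321 and 412 CPM), and the part of other cells in its level was not tested. Bcl2, the survival factor, was the member that was lower, at 567, 565, 563 and 568 CPM in the vehicle libraries and 153, 144 and 151 CPM in the tumour libraries (3.79-fold; log2 fold change -1.92 ± 0.04 (SE), edgeR adjusted p = 1.21e-11). Of the 13 large increases, 9 (69.2%) were highest in tumour library 2, close to the 61.9% of all large increases, and none lowest there. Among the 15 members restricted to lymphocytes, 7 were higher by the rule and none lower.

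Among the T cell lists, the granule genes held the most large decreases. Of 24 tested, 8 were lower by the large-difference rule (33.3%, against 11.9% of all genes) and 5 higher, and among the 14 restricted to lymphocytes 7 were lower and 2 higher. Gzmb, the main granzyme of CD8+ cells, stood at 3518, 3821, 3292 and 3348 CPM in the vehicle libraries and 871, 498 and 773 CPM in the tumour libraries. The highest tumour library lay far below the lowest culture, 4.90-fold by the means (log2 fold change -2.29 ± 0.19 (SE), edgeR adjusted p = 1.38e-05). Prf1, the pore-forming perforin, stood at 605, 645, 504 and 543 CPM in the vehicle libraries and 168, 105 and 212 CPM in the tumour libraries, 3.55-fold lower (log2 fold change -1.83 ± 0.24 (SE), edgeR adjusted p = 0.000311). Gzma stood at 426, 441, 414 and 411 CPM in the vehicle libraries and 122, 41.4 and 53.2 CPM in the tumour libraries, with tumour library 1 well above the other two (5.87-fold; log2 fold change -2.55 ± 0.40 (SE), edgeR adjusted p = 0.0015). Spleen cells held 16.7 ± 10.4 CPM of Gzmb and 106 ± 6.90 CPM of Prf1, so tumour cells stood above spleen for Gzmb and overlapped it for Prf1.

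The clustered granzymes Gzmc, Gzmd and Gzmg fell furthest. Gzmc averaged 928 ± 59.3 CPM in vehicle and 147 ± 51.7 CPM in tumour libraries (6.31-fold; log2 fold change -2.66 ± 0.23 (SE), edgeR adjusted p = 2.18e-05), Gzmd averaged 237 ± 4.22 CPM in vehicle and 21.7 ± 10.1 CPM in tumour libraries (10.9-fold) and Gzmg 238 ± 3.68 CPM in vehicle and 2.53 ± 1.95 CPM in tumour libraries (93.9-fold). These paralogs share sequence, so their separate values are uncertain. Gzmk and Gzmm rose above culture, but only Gzmk also lay above spleen. Spleen cells held 3.66 ± 2.10 CPM of Gzmk and 12.1 ± 0.997 CPM of Gzmm. Gzmk, which marks memory-like and exhausted precursor cells, stood at 0.235, 0.268, 0.494 and 0.286 CPM in the vehicle libraries and 36.3, 13.5 and 21.0 CPM in the tumour libraries (log2 fold change 6.20 ± 0.46 (SE), edgeR adjusted p = 2.51e-06). Its tumour values were spread from library to library but all lay above culture. Gzmm, a granzyme of innate-like lymphocytes, stayed low at 1.10, 1.21, 0.905 and 0.817 CPM in the vehicle libraries and 2.79, 2.48 and 2.75 CPM in the tumour libraries (2.66-fold higher; log2 fold change 1.40 ± 0.20 (SE), edgeR adjusted p = 5.75e-05). Gzmf did not pass, with 77.9, 83.8, 79.4 and 78.2 CPM in the vehicle libraries and 90.1, 82.8 and 360.2 CPM in the tumour libraries and tumour library 3 far above the others (log2 fold change 1.16 ± 0.58 (SE), edgeR adjusted p = 0.117). Stx11, a syntaxin needed for granule fusion, rose 3.93-fold, and Lamp1, a granule membrane protein found in all cells, 2.14-fold. Of the 5 large increases in the list, 3 were lowest in tumour library 2.

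Cytokines differed in both directions. Of 22 tested, 11 were higher by the large-difference rule (50.0%) and 3 lower, with a median log2 fold change of 0.92. Ifng, interferon gamma, stood at 15.4, 16.1, 11.3 and 12.2 CPM in the vehicle libraries and 55.8, 50.8 and 64.2 CPM in the tumour libraries, 4.14-fold higher in tumours (log2 fold change 2.04 ± 0.12 (SE), edgeR adjusted p = 1.2e-07), and at 0.986 ± 0.320 CPM in spleen. Tnf, tumour necrosis factor, stood at 82.6, 86.1, 62.1 and 66.6 CPM in the vehicle libraries and 17.9, 15.4 and 18.0 CPM in the tumour libraries and was 4.35-fold lower (log2 fold change -2.12 ± 0.13 (SE), edgeR adjusted p = 2.5e-07). Lta, lymphotoxin alpha, was 14.8-fold lower (189 ± 33.5 CPM in vehicle and 12.8 ± 1.23 CPM in tumour libraries; log2 fold change -3.89 ± 0.17 (SE), edgeR adjusted p = 5.24e-08), and Tnfsf8, the CD30 ligand, 4.13-fold lower. All 4 of these genes met the large-difference rule, which itself requires that the groups do not overlap.

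Chemokines were raised in tumours. Xcl1, which attracts cross-presenting dendritic cells, stood at 1.02, 1.41, 1.44 and 1.39 CPM in the vehicle libraries and 81.4, 91.2 and 68.4 CPM in the tumour libraries, 61.2-fold higher (log2 fold change 5.93 ± 0.13 (SE), edgeR adjusted p = 1.77e-11), and Ccl4, a chemokine of activated T cells, rose 19.1-fold (1.50 ± 0.307 CPM in vehicle and 28.7 ± 7.99 CPM in tumour libraries; log2 fold change 4.26 ± 0.22 (SE), edgeR adjusted p = 2.99e-08). Ccl1, the ligand of CCR8, had counts in 1 of the 4 vehicle libraries and stood at 11.1, 9.65 and 9.85 CPM in tumours. Csf1, the macrophage growth factor, rose 21.8-fold (23 ± 3.34 CPM in vehicle and 500.2 ± 119 CPM in tumour libraries). Areg, an epidermal growth factor receptor ligand, was at 0 in all 4 vehicle libraries and at 10.2, 17.9 and 12.7 CPM in tumours, at least 472-fold higher against 3 counts over the vehicle group. Fibroblasts can also make Csf1 and Areg, and both were highest in tumour library 2. Among the 11 tested members restricted to lymphocytes, 6 were higher and 2 lower by the rule.

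Receptors for cytokines and costimulation differed gene by gene. Il2ra, the interleukin-2 receptor alpha chain, which interleukin-2 itself maintains, stood at 975, 984, 953 and 950.5 CPM in the vehicle libraries and 112, 86.2 and 84.9 CPM in the tumour libraries, 10.2-fold lower in tumours (log2 fold change -3.35 ± 0.10 (SE), edgeR adjusted p = 3.61e-10). Socs2 and Socs1, feedback inhibitors of cytokine signalling, were 4.52-fold and 2.46-fold lower, and Il12rb1, a chain of the interleukin-12 receptor, 4.45-fold lower. Socs3, the feedback inhibitor of gp130 receptors, rose 5.63-fold, and Ifngr2, a chain of the interferon gamma receptor, 7.83-fold. Il1rl1, which encodes the interleukin-33 receptor ST2, stood at 1.49, 1.27, 1.89 and 1.59 CPM in the vehicle libraries and 131, 236 and 203 CPM in the tumour libraries (log2 fold change 6.93 ± 0.27 (SE), edgeR adjusted p = 1.06e-07), also highest in tumour library 2. Of 30 genes in this list, 5 were higher (16.7%) and 4 lower by the large-difference rule, below the 21.1% of all genes that were higher. Of the 5, 3 were highest in tumour library 2.

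Of 18 costimulatory and death receptors, 6 (33.3%) were higher and 3 (16.7%) lower by the same rule, against 21.1% and 11.9% of all genes. Tnfrsf1b, the second receptor for tumour necrosis factor, rose 7.26-fold (74.3 ± 2.10 CPM in vehicle and 539 ± 56.7 CPM in tumour libraries; log2 fold change 2.86 ± 0.07 (SE), edgeR adjusted p = 1.54e-11), Crtam, an adhesion receptor of activated cytotoxic cells, 5.64-fold, and Cd44, the hyaluronan receptor, 4.50-fold. Tnfrsf9, the costimulator 4-1BB, stood at 791, 846, 659 and 701 CPM in the vehicle libraries and 355, 259 and 359 CPM in the tumour libraries and was 2.31-fold lower (log2 fold change -1.21 ± 0.13 (SE), edgeR adjusted p = 3.15e-05). Slamf7 and Tnfrsf26 were 2.77-fold and 2.63-fold lower. Of the 6 increases, 4 (66.7%) were lowest in tumour library 2.

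Genes of tissue residency were raised as a group. Of 19 tested, 14 were higher by the large-difference rule (73.7%) and 1 lower, with a median log2 fold change of 2.12, and among the 7 restricted to lymphocytes 4 were higher and 1 lower. Ccr8, a chemokine receptor of tissue T cells, stood at 0.274, 0.402, 0.370 and 0.449 CPM in the vehicle libraries and 48.9, 44.7 and 45.3 CPM in the tumour libraries (124-fold; log2 fold change 6.93 ± 0.12 (SE), edgeR adjusted p = 2.94e-12), and spleen held 0.117 ± 0.124 CPM. Itgae, the integrin CD103, stood at 1.02, 0.837, 0.864 and 0.939 CPM in the vehicle libraries and 41.1, 27.1 and 17.7 CPM in the tumour libraries (31.3-fold; log2 fold change 4.96 ± 0.33 (SE), edgeR adjusted p = 8.89e-07), below the 159 ± 0.463 CPM of spleen, where it is also known on naive CD8+ cells. Itga1, the collagen-binding integrin CD49a, rose 13.3-fold (4.89 ± 1.30 CPM in vehicle and 65.1 ± 11.4 CPM in tumour libraries; log2 fold change 3.75 ± 0.18 (SE), edgeR adjusted p = 7.44e-08) and was at 1.60 CPM in spleen. Rgs16 and Rgs2, which damp chemokine receptor signals, rose 46.7-fold and 44.1-fold. Itgb7, a gut homing integrin chain, was 2.51-fold lower. Cd69, the retention receptor, was level, at 93.6, 93.7, 81.1 and 84.2 CPM in the vehicle libraries and 92.0, 80.6 and 91.2 CPM in the tumour libraries (log2 fold change -0.00 ± 0.07 (SE), edgeR adjusted p = 0.957), with groups that overlapped. Of the 14 increases, 8 (57.1%) were lowest and 4 highest in tumour library 2.

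Of 13 tested chemokine receptors, 6 (46.2%) were higher and 2 (15.4%) lower by the large-difference rule. Cx3cr1, the fractalkine receptor of effector cells and macrophages, stood at 0.470, 0.167, 0.370 and 0.449 CPM in the vehicle libraries and 49.6, 39.2 and 50.8 CPM in the tumour libraries (128-fold; log2 fold change 7.01 ± 0.18 (SE), edgeR adjusted p = 4.48e-11). Cxcr4 rose 9.29-fold, and Cxcr3, the receptor for interferon-induced chemokines, 5.59-fold (9.97 ± 2.05 CPM in vehicle and 55.7 ± 17.4 CPM in tumour libraries; log2 fold change 2.49 ± 0.23 (SE), edgeR adjusted p = 1.49e-05). Ackr3, a scavenging receptor that stromal cells are known to carry, was at 0 in culture and at 8.72, 16.2 and 14.4 CPM in tumours, at least 455-fold higher against 3 counts over the vehicle group. Ccr4 was 7.55-fold lower (31.6 ± 3.69 CPM in vehicle and 4.19 ± 1.59 CPM in tumour libraries; log2 fold change -2.92 ± 0.21 (SE), edgeR adjusted p = 6.71e-07). NK receptors carried by T cells were higher in 7 of 15 cases by the rule, all 7 restricted to lymphocytes, and lower in 1. Of the 7, 4 (57.1%) were highest in tumour library 2. Klre1 and Klra7, lectin-like receptors of a gene family with shared sequence, rose 19.5-fold and 10.2-fold, and Klrk1, the activating receptor NKG2D, 2.00-fold (122 ± 9.50 CPM in vehicle and 244 ± 38.1 CPM in tumour libraries; log2 fold change 1.00 ± 0.10 (SE), edgeR adjusted p = 9.05e-06).

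**Figure D3:**
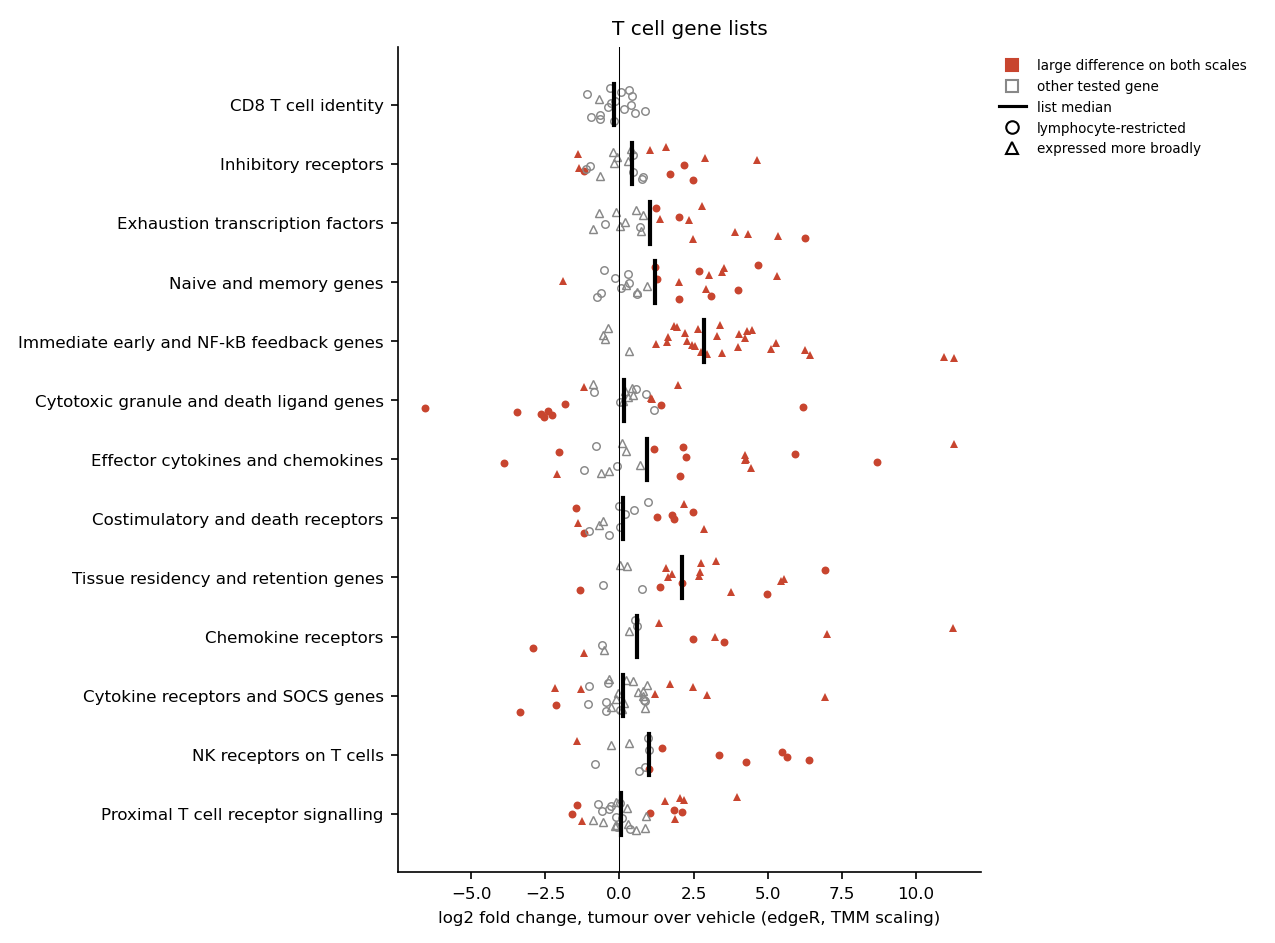
Log2 fold change of tumour over vehicle libraries (horizontal axis) for each tested gene of the T cell lists, with red for large differences on both scalings, circles for lymphocyte-restricted genes, triangles for others and a bar at each list's median. Medians run from -0.20 for the identity genes to 2.85 for the immediate early genes, and the granule list holds 8 large decreases.

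**Figure D4:**
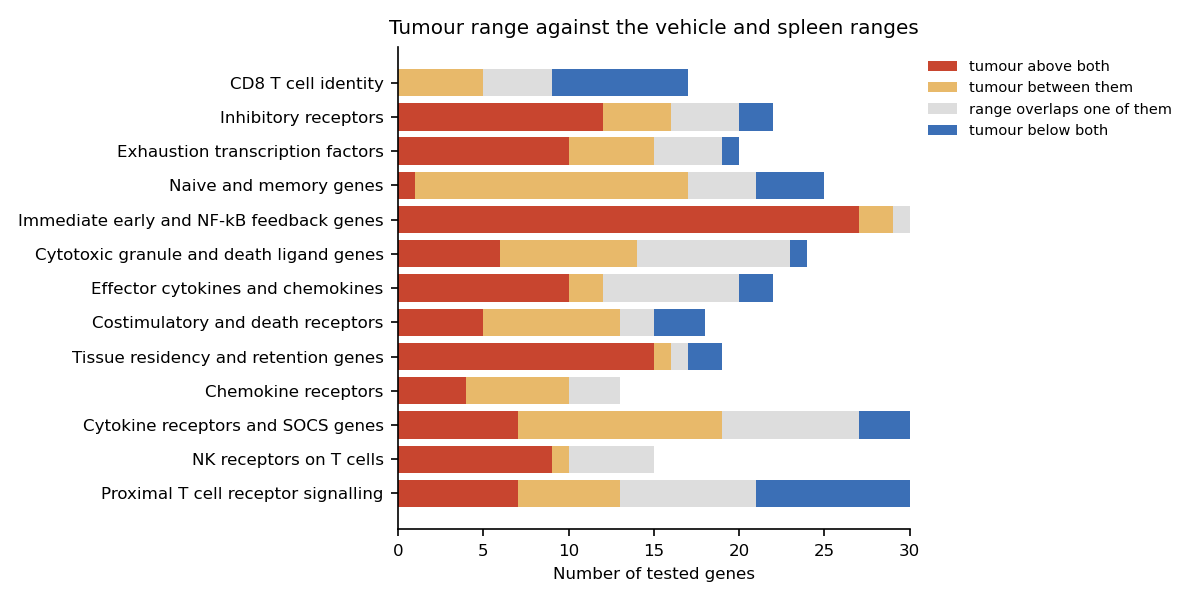
Number of tested genes (horizontal axis) in each T cell list whose whole tumour range lay above, between, below or across the ranges of the vehicle and spleen libraries, all scaled together. The immediate early list has 27 genes above both, and the naive and memory list has 16 between.

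Replication genes were higher in tumours by small amounts, and mitosis genes went both ways. Of 26 DNA replication genes 18 were higher and 3 lower at an edgeR adjusted p under 0.05 (median log2 fold change 0.26), and 1 was higher by the large-difference rule. Of 25 mitosis genes none was higher or lower (8 higher and 10 lower at an edgeR adjusted p under 0.05; median log2 fold change -0.03). On identity scaling 8 mitosis genes were higher and 3 lower at that threshold. Over all genes 41.0% were higher and 38.1% lower on the first scale, and 6737 and 3996 of 15475 on identity scaling. Mki67, the proliferation marker, stood at 621, 547, 631 and 588 CPM in the vehicle libraries and 490.1, 475 and 443 CPM in the tumour libraries, a difference of 1.27-fold (log2 fold change -0.35 ± 0.06 (SE), edgeR adjusted p = 0.000155) that did not pass on identity scaling, and at 58.8 ± 15.8 CPM in spleen. The replication gene that met the large-difference rule was Tyms, thymidylate synthase, 2.54-fold higher. Inhibitors of the cycle differed more, with 3 of 10 higher and 3 lower. Cdkn1a, p21, stood at 506, 550.2, 434 and 474 CPM in the vehicle libraries and 55.0, 73.1 and 48.3 CPM in the tumour libraries (8.35-fold lower; log2 fold change -3.06 ± 0.15 (SE), edgeR adjusted p = 1.26e-07). Cdkn2a, the locus of p16 and p19ARF, stood at 4.43, 5.29, 4.28 and 4.16 CPM in the vehicle libraries and 159, 208 and 196 CPM in the tumour libraries (41.3-fold higher; log2 fold change 5.36 ± 0.11 (SE), edgeR adjusted p = 4.59e-11), and Cdkn2b rose 4.18-fold. All 3 raised inhibitors were highest in tumour library 2. Trp53inp1 and Rbl2, both linked to quiescence or p53, were 3.19-fold and 2.31-fold lower.

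The study concerns acetyl-CoA carboxylase, the enzyme that commits acetyl-CoA to fatty acid synthesis and whose product malonyl-CoA blocks fatty acid import into mitochondria. Its main gene Acaca stood at 140.1, 133, 141 and 130.0 CPM in the vehicle libraries and 86.0, 88.2 and 86.8 CPM in the tumour libraries. Tumour libraries were tightly grouped and all below culture, 1.57-fold (log2 fold change -0.65 ± 0.04 (SE), edgeR adjusted p = 9.25e-08), and spleen was lower still at 62.2 ± 0.992 CPM. Acacb, the mitochondrial form, stood at a few CPM or less, 2.55, 2.38, 2.67 and 2.49 CPM in the vehicle libraries and 1.62, 1.29 and 0.650 CPM in the tumour libraries (log2 fold change -1.08 ± 0.26 (SE), edgeR adjusted p = 0.00248). Fasn, fatty acid synthase, stood at 644, 634, 603 and 642 CPM in the vehicle libraries and 431, 483 and 449 CPM in the tumour libraries, 1.39-fold lower (log2 fold change -0.47 ± 0.05 (SE), edgeR adjusted p = 2.96e-06). Cpt1a, the import enzyme that malonyl-CoA inhibits, stood at 65.4, 65.5, 66.1 and 66.0 CPM in the vehicle libraries and 60.2, 50.1 and 56.5 CPM in the tumour libraries (log2 fold change -0.24 ± 0.06 (SE), edgeR adjusted p = 0.00265), and on identity scaling its difference did not pass.

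Fatty acid synthesis as a list was not raised. Of 24 tested genes, 9 were higher and 12 lower at an edgeR adjusted p under 0.05, 3 higher and 1 lower by the large-difference rule, with a median log2 fold change of -0.32. The 3 that rose were Me1, malic enzyme, 63.7-fold (1.02 ± 0.166 CPM in vehicle and 64.6 ± 13.5 CPM in tumour libraries), Fads1, a desaturase, 2.21-fold, and Acsl3, an acyl-CoA synthetase of lipid droplets, 2.17-fold. All 3 were highest in tumour library 2. Fatty acid oxidation genes were higher by that rule in 1 of 26 cases, Cpt1c, the neuronal carnitine palmitoyltransferase, at 4.03 ± 0.334 CPM in vehicle and 11.3 ± 3.03 CPM in tumour libraries. Cholesterol synthesis and uptake genes were lower in 18 of 28 cases and higher in 5 at an edgeR adjusted p under 0.05. Over all genes 38.1% were lower and 41.0% higher at that threshold. On identity scaling 12 of the 28 were lower and 6 higher. By the large-difference rule 3 were lower and 2 higher. Hmgcs1 and Lss, enzymes of sterol synthesis, were 2.98-fold and 2.62-fold lower, and Mylip, which degrades the LDL receptor, was 11.6-fold higher.

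Single lipid storage genes held some of the widest gaps. Pparg, the nuclear receptor of fat storage, stood at 17.1, 15.6, 18.4 and 15.3 CPM in the vehicle libraries and 0, 0.0539 and 0.200 CPM in the tumour libraries, 196-fold lower by the means (log2 fold change -7.51 ± 0.30 (SE), edgeR adjusted p = 6.6e-10). Spleen cells held 0.0173 CPM. Lipe, hormone-sensitive lipase, was 6.86-fold lower (41.1 ± 0.555 CPM in vehicle and 5.99 ± 1.42 CPM in tumour libraries; log2 fold change -2.77 ± 0.12 (SE), edgeR adjusted p = 1.16e-09). Dgat1, which makes triglyceride, stood at 60.8, 63.4, 59.0 and 61.8 CPM in the vehicle libraries and 356, 274 and 288 CPM in the tumour libraries (4.99-fold higher; log2 fold change 2.32 ± 0.08 (SE), edgeR adjusted p = 8.38e-10), and Hilpda, a lipid droplet protein that blocks lipolysis, at 16.8, 20.1, 16.2 and 17.1 CPM in the vehicle libraries and 60.4, 47.4 and 68.8 CPM in the tumour libraries (3.35-fold higher; log2 fold change 1.74 ± 0.12 (SE), edgeR adjusted p = 3.76e-07). Both were lowest in tumour library 2. Of the 24 tested genes of this list, 5 were higher (20.8%) and 3 lower (12.5%) by the rule. These shares were close to the 21.1% and 11.9% of all genes.

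Glycolysis genes were as a list no higher in tumours. Of 24, 11 were higher and 11 lower at an edgeR adjusted p under 0.05, against 41.0% and 38.1% of all genes. By the large-difference rule 2 were higher and 5 lower. Aldoa and Aldoc, aldolases, were 2.84-fold and 7.76-fold lower, with Aldoa at 2686, 2801, 2427 and 2601 CPM in the vehicle libraries and 919, 866 and 991 CPM in the tumour libraries. Pfkp, the platelet-type phosphofructokinase, was 3.06-fold lower (862 ± 32.3 CPM in vehicle and 281 ± 29.1 CPM in tumour libraries; log2 fold change -1.62 ± 0.07 (SE), edgeR adjusted p = 1.03e-09), whereas Pfkl, the liver type, was 2.21-fold higher, and Slc2a1, the glucose transporter GLUT1, 2.75-fold higher (66.3 ± 3.36 CPM in vehicle and 182 ± 19.0 CPM in tumour libraries; log2 fold change 1.46 ± 0.07 (SE), edgeR adjusted p = 3.41e-09). Hypoxia response genes were higher in 7 of 25 cases and lower in 2 by the rule, and 6 of the 7 (85.7%) were highest in tumour library 2. Slc6a8, a creatine transporter, rose 39.4-fold, P4ha1, a collagen prolyl hydroxylase, 3.42-fold, and Ndrg1 3.40-fold. Ero1l, an oxidase of the endoplasmic reticulum, was 3.08-fold lower and Car12, a carbonic anhydrase, 5.30-fold lower.

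None of 40 nuclear genes of oxidative phosphorylation was higher or lower by the large-difference rule (12 higher and 13 lower at an edgeR adjusted p under 0.05; median log2 fold change -0.02). On identity scaling 14 of the 40 were higher and 3 lower at that threshold. The shares of all genes were 41.0% higher and 38.1% lower on the first scale. On identity scaling 6737 of 15475 genes were higher and 3996 lower. Mitochondrially encoded mRNAs took 1.76% to 1.87% of tumour and 2.76% to 3.12% of vehicle counts (exact permutation p = 0.0571). Of 13, 9 were lower and 1 higher at an edgeR adjusted p under 0.05, and on identity scaling 5 were lower and 1 higher. The 1 that met the large-difference rule was mt-Nd4l, a subunit of complex I, 2.47-fold lower.

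**Figure D5:**
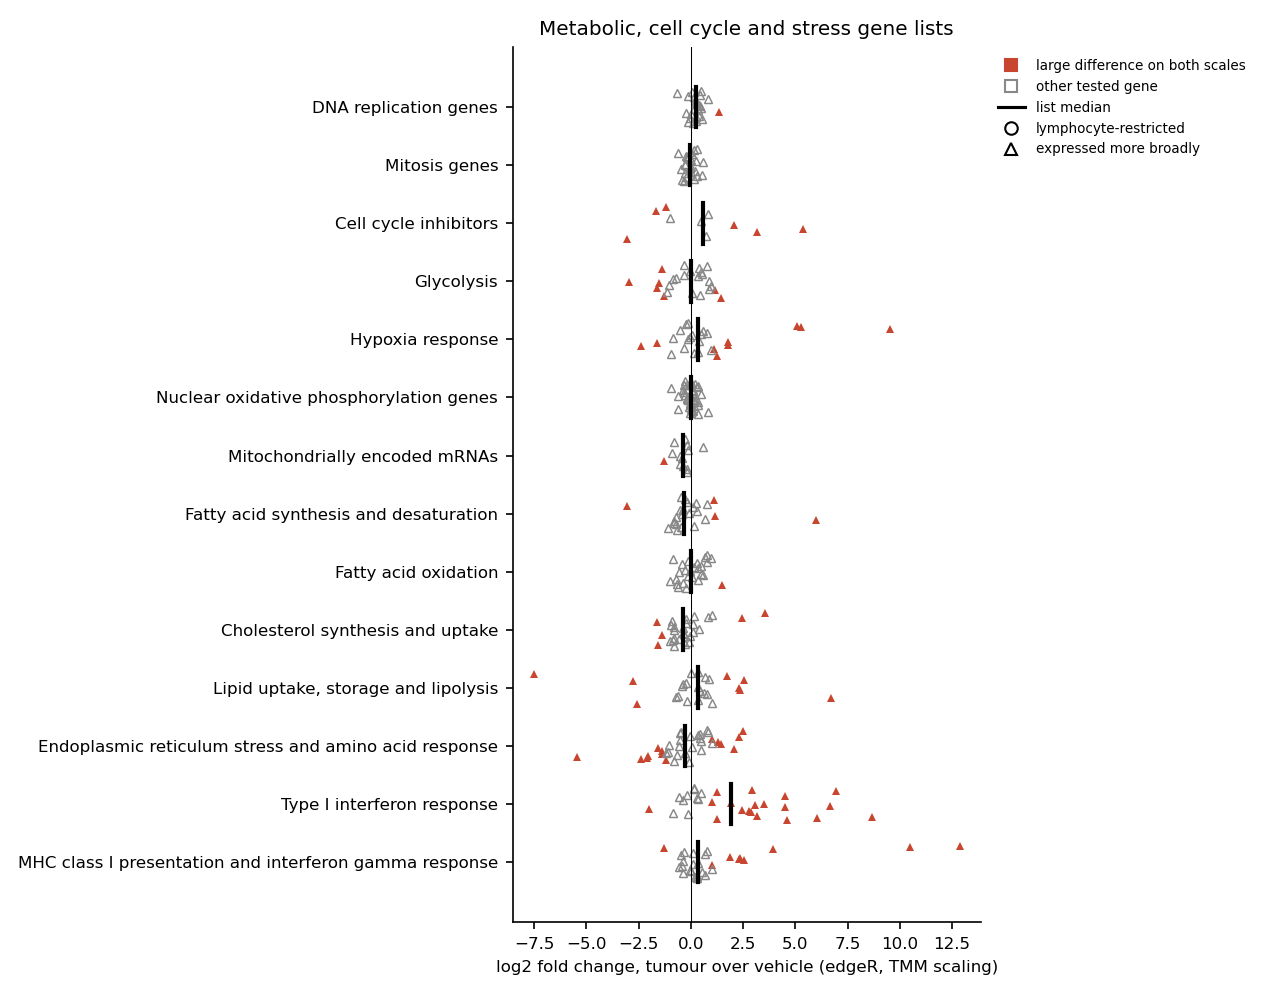
Log2 fold change of tumour over vehicle libraries (horizontal axis) for each tested gene of the cell cycle, metabolic and stress lists, with red for large differences on both scalings and a bar at each list's median. Mitosis and oxidative phosphorylation genes lie close to 0 with no large difference, and the type I interferon list has its median at 1.92.

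Genes of the amino acid response and endoplasmic reticulum stress differed in both directions. Of 35 tested, 6 (17.1%) were higher and 8 (22.9%) lower by the large-difference rule, against 21.1% and 11.9% of all genes. Trib3, a pseudokinase induced by ATF4, stood at 143, 147, 133 and 141 CPM in the vehicle libraries and 2.79, 3.67 and 3.15 CPM in the tumour libraries (44-fold lower; log2 fold change -5.46 ± 0.08 (SE), edgeR adjusted p = 1.35e-12). Asns, asparagine synthetase, was 5.20-fold lower (146 ± 10.3 CPM in vehicle and 28.2 ± 3.29 CPM in tumour libraries; log2 fold change -2.38 ± 0.08 (SE), edgeR adjusted p = 4.02e-10), and Chac1, which degrades glutathione, 4.29-fold lower. All 3 are known ATF4 targets, and so are Ppp1r15a and Slc38a2 among those that rose. Higher in tumours were Ppp1r15a, the GADD34 phosphatase subunit, 5.58-fold, Dnajb9, a chaperone of the endoplasmic reticulum, 4.95-fold, and Slc38a2, an amino acid transporter, 2.75-fold. Of the 6 raised genes, 5 (83.3%) were highest in tumour library 2.

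Type I interferon response genes were mostly higher in tumours than in culture. Of 29 type I interferon response genes, 18 were higher by the large-difference rule (62.1%) and 1 lower. Ifit3, an interferon-induced antiviral protein, stood at 0.431, 0.301, 0.823 and 0.286 CPM in the vehicle libraries and 26.6, 35.7 and 26.6 CPM in the tumour libraries (64.4-fold; log2 fold change 6.02 ± 0.23 (SE), edgeR adjusted p = 1.07e-09). Spleen cells held 48.0 ± 1.79 CPM. Ifit1 stood at 0.666, 0.937, 0.905 and 0.735 CPM in the vehicle libraries and 16.8, 24.1 and 18.5 CPM in the tumour libraries (24.4-fold; log2 fold change 4.59 ± 0.17 (SE), edgeR adjusted p = 4.91e-10) and at 27.4 ± 2.97 CPM in spleen. Isg15, the ubiquitin-like modifier, rose 9.01-fold and Oasl2, an oligoadenylate synthetase-like protein, 101-fold. For 15 of the 29 genes (51.7%, against 7.36% of all) the tumour range lay above culture and below spleen, and for 4 (13.8%, against 29.3%) it lay above both. Oas3 went the other way, 3.95-fold lower (108 ± 3.15 CPM in vehicle and 27.3 ± 5.10 CPM in tumour libraries; log2 fold change -1.98 ± 0.10 (SE), edgeR adjusted p = 3.5e-08). Of the 18 raised genes, 15 (83.3%) were highest in tumour library 2.

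The promoters of Ifit1 and Ifit3 are shown because the list is defined by its response through interferon-stimulated response elements. They are the 250 bases before the RefSeq start (GRCm38.p6), on the gene's strand, with the core GAAANNGAAA or its reverse complement TTTCNNTTTC in capitals.
Ifit1, chr19:34640639-34640888, plus strand: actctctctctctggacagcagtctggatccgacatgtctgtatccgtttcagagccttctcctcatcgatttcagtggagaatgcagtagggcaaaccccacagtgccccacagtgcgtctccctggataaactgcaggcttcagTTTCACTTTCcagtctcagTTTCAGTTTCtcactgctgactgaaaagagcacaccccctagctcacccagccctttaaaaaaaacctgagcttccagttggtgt
Ifit3, chr19:34583279-34583528, plus strand: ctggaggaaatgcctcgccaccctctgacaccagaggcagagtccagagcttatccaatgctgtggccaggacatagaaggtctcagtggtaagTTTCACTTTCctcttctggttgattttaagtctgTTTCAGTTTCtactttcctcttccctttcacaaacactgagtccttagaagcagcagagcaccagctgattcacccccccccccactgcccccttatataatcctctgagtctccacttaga
Each window held 2 cores. Of the 21 genes of the list with a promoter in the RefSeq table, 10 (47.6%) held the core on either strand. Among the 11045 tested genes with a promoter there, 3.28% did. Because the list is defined by that response, its share says nothing about tumour against culture. Here too a match describes letters and not binding.

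Of 28 genes of MHC class I presentation and the interferon gamma response, 8 (28.6%) were higher and 1 (3.57%) lower by the large-difference rule. Their median log2 fold change was 0.32. Cxcl9, a chemokine made by myeloid cells on interferon gamma, was at 0 in all 4 vehicle libraries and at 30.7, 39.7 and 49.8 CPM in tumours, at least 1390.0-fold higher against 3 counts over the vehicle group. Cxcl10, a second ligand of CXCR3, went from 0.117, 0.0670, 0.165 and 0.0817 to 115, 202 and 165 CPM, and Iigp1, an interferon-induced GTPase, rose 15.0-fold (5.87 ± 1.22 CPM in vehicle and 88.2 ± 22.1 CPM in tumour libraries; log2 fold change 3.92 ± 0.21 (SE), edgeR adjusted p = 4.07e-07). Myeloid and connective tissue cells are known to make Cxcl9 and Cxcl10, and markers of both were present in the tumour libraries. Which cells made these transcripts was not tested.

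The genes with the highest log2 fold changes overall were not T cell genes. They were Bgn and Col5a1 (matrix proteins), Col3a1 (a fibrillar collagen), Crabp1 (a retinoic acid binding protein) and Cxcl1 (a neutrophil chemokine), at means of 982, 396, 3214, 680.3 and 436 CPM in tumours. Col3a1 had 2 of the 4 vehicle libraries at 0, and the other 4 genes had all 4 at 0. Fn1, fibronectin, stood at 1992, 2789 and 2582 CPM in tumours. The fibroblast list was higher by the large-difference rule in 28 of 29 cases. The lowest log2 fold changes were those of Pkhd1l1, a large membrane protein, from 14.6 to 0.0349 CPM, Pparg, Gpr141, an orphan receptor, 139-fold lower (99.5 ± 2.50 CPM in vehicle and 0.714 ± 0.512 CPM in tumour libraries), Cox6b2, a testis-type oxidase subunit, 118-fold lower (40.7 ± 0.670 CPM in vehicle and 0.345 ± 0.0747 CPM in tumour libraries), and Gzmg. Each of these 5 was below 5 CPM in every tumour library.

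Markers of other cells differed between groups in both directions. Dendritic cell markers were higher in 8 of 11 tested cases by the rule and took 0.0396% to 0.0501% of tumour counts. The most abundant members in tumours were Fscn1, fascin (1.20 ± 0.308 CPM in vehicle and 334 ± 54.9 CPM in tumour libraries), a protein that fibroblasts and tumour cells also make, and Bst2, which did not pass (log2 fold change -0.16 ± 0.09 (SE), edgeR adjusted p = 0.107). Batf3, a factor of dendritic cells and of activated CD8+ cells, was 39-fold lower (55.9 ± 3.58 CPM in vehicle and 1.43 ± 0.418 CPM in tumour libraries). In the macrophage, monocyte and neutrophil list, 10 of 16 were higher. Its most abundant members were Spp1 (219 ± 5.59 CPM in vehicle and 401 ± 71.6 CPM in tumour libraries) and Ly6c2 (7.42 ± 1.50 CPM in vehicle and 284 ± 52.4 CPM in tumour libraries), and the latter stood at 335 CPM in spleen CD8+ cells. Endothelial markers were higher in 10 of 12 cases, with Eng at 23.1 ± 0.628 CPM in vehicle and 57.7 ± 9.02 CPM in tumour libraries and Pecam1 at 35.9 ± 3.09 CPM in vehicle and 28.1 ± 1.58 CPM in tumour libraries. B cell markers were higher in 4 of 11, with the B cell receptor chain Ighm at 110.1 ± 6.86 CPM in vehicle and 59.8 ± 7.41 CPM in tumour libraries and H2-Ab1 at 32.0 ± 1.64 CPM in vehicle and 28 ± 10.2 CPM in tumour libraries. The MHC class II chains H2-Aa and H2-Eb1 and the invariant chain Cd74 rose 28.5-fold, 13.9-fold and 19.3-fold, Cd74 to 56.6, 83.4 and 55.1 CPM in tumour libraries 1, 2 and 3.

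Among NK and gamma delta T cell markers 3 of 11 were higher and 4 lower. Trdc, the constant region of the delta chain, stood at 125, 128, 135 and 131 CPM in the vehicle libraries and 3.19, 3.61 and 2.95 CPM in the tumour libraries (39.8-fold lower; log2 fold change -5.32 ± 0.07 (SE), edgeR adjusted p = 9e-13), and Eomes, a factor shared by NK and memory CD8+ cells, at 22.8 ± 2.06 CPM in vehicle and 37.3 ± 6.91 CPM in tumour libraries. The 1 tested erythroid or platelet gene, Itga2b, was 4.17-fold lower. Of the 10 tested CD4 and regulatory T cell markers, which include Il2ra and Ctla4, 3 were higher and 4 lower. Of 5 nuclear retained RNAs, 2 were higher and 3 lower in tumours at an edgeR adjusted p under 0.05. By the large-difference rule 1 was higher and 1 lower. The 2 most abundant were both lower. Malat1 was 1.55-fold lower. Xist, the silencing RNA of the inactive X chromosome, was 4.65-fold lower (2185 ± 153 CPM in vehicle and 470.3 ± 40.0 CPM in tumour libraries). The list took 0.159% to 0.171% of tumour and 0.360% to 0.413% of vehicle counts (exact permutation p = 0.0571).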

How the data were processed

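Messenger RNA was measured by poly(A)-selected, strand-marking, paired-end RNA sequencing per the labels' protocols, with reads of 150 bases. For each of the 2 experiments the authors deposited a table of estimated counts, with 55291 gene symbols in both. STAR, Salmon and DESeq2 are listed, without versions, in the submitters' processing notes. The build of the genome, the annotation and any strand setting were not given in the sources used here. Reads of overlapping, antisense and near-identical genes are therefore uncertain. The deposited estimated counts were not normalized and were rounded to whole numbers here. All columns matched a sample.

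The 7 libraries were fitted together by edgeR 4.0.16 (R 4.3.3): filterByExpr kept 15475 genes, TMM set the scale, and the quasi-likelihood test (robust) was adjusted over these genes by Benjamini-Hochberg at 0.05. Means are given with their SD (n = 4 vehicle, n = 3 tumour). Scaling to 17 CD8 identity genes was the second scale of the large-difference rule. Levels beside spleen come from TMM over all 14 libraries. Replicates were further apart than sampling noise (chi-square per degree of freedom 3.09 to 18.3), so none was counted as a duplicate. The scripts were checked on simulated data. Promoter windows and their motifs come from RefSeq (GRCm38.p6).

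The 37 gene lists (796 genes, 4 not among the symbols) and the comparison were chosen with earlier results of these data known. Genes were named by a rule. It took a set of T cell and lipid genes always (1 of them is not reported here), from each T cell and program list up to 3 highest and 3 lowest log2 fold changes among large differences of at least 10 CPM, from all genes the 5 highest and 5 lowest, and from each cell type or quality list the 2 most abundant. Klrc1, Maf, Zeb2, Tbx21, Ccr7, Itgae, Itga1, Cd69, Ccl4, Csf1, Gzma, Hspa1b, Isg15, Batf3, Cxcr3, Gzmm, Gzmf, Btla, Cd74, H2-Aa, H2-Eb1, Cd4 and Foxp3 were chosen after their values were seen. Alternatives were other scalings, DESeq2 1.42.0, limma-voom (limma 3.58.1), other count filters, a 2-fold threshold, the replicate number as a block, all 14 libraries in 1 fit and leaving out each library.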

Additional observations from a re-analysis of the deposited data

Results flagged for a closer look

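In the 4 vehicle libraries, 166 values printed above were checked for a library far from the other 3, by the gap to its neighbour over the whole range (Dixon's ratio), and 7 had one. Chance alone gives about 1 in 20 such cases. Tumour libraries, 3 in number, were not checked this way. Nr4a3 was at 28.5 CPM in vehicle library 3 and at 34.1 to 35.3 CPM in the other 3, and Klre1 at 1.11 CPM there and at 1.29 to 1.31 CPM elsewhere. Vehicle library 1 stood apart for Cxcr4 (19.5 CPM, the others 23.2 to 23.5), Xcl1 (1.02 CPM, the others 1.39 to 1.44) and Cd200r1 (14.6 CPM, the others 13.5 to 13.7). Vehicle library 2 stood apart for Stx11 (21.7 CPM, the others 20.1 to 20.2) and Btla (32.8 CPM, the others 36.3 to 36.5). Each of these gaps was small beside the difference from the tumour libraries.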

How the results depend on the processing

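No result reversed under any alternative. The count of genes called went from 12239 (6346 higher, 5893 lower) to 4518 (2928 and 1590) when tested against a 2-fold change, and kept within 1.5 times under the other 16 alternatives. All 5115 large differences kept their direction wherever they were tested, and 4174 stayed large under that 2-fold test. With 1 CPM required in 3 libraries 4294 of the 4313 tested stayed large, and 4887 to 5115 did under the others. The large-difference rule already includes identity scaling, so that alternative could lose none. The check for overlap used the main scalings throughout, and leaving out a library cannot create overlap, so this part of the rule was not tried. Some short lists moved. Under the 2-fold test the counts of large decreases became 1 for inhibitory receptors, 1 for chemokine receptors, 5 for the amino acid and endoplasmic reticulum list, 3 for glycolysis, and 0 for NK receptors, residency genes, the interferon gamma list and mitochondrial mRNAs, and large increases in fatty acid synthesis became 1. Under identity scaling alone large increases became 8 for cytokine receptors and 5 for glycolysis. Fatty acid oxidation had 2 large increases in place of 1 under identity scaling, DESeq2 size factors, TMM over spleen-detected genes, the DESeq2 Wald test and no count filter. Lipid storage had 8 without the filter and 2 with 1 CPM required in 3 libraries, where the large decrease in fatty acid synthesis became 0.

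Leaving out 1 library gave 1 to 2 large decreases in chemokine receptors, 3 to 5 in cytokines, 0 to 2 in fatty acid synthesis, and 1 to 2 large increases in fatty acid oxidation and 5 to 8 in lipid storage. Same-numbered libraries did not deviate together (correlations -0.03, 0.03 and 0.03), so the numbers do not pair them. With the replicate block 11608 genes were called (6081 higher, 5527 lower), and large decreases in chemokine receptors became 1. Experiment and group coincide, so no within-batch value exists. The number of libraries and their depth limit what can be said of genes near 0.1 CPM.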
